A study of Mus musculus with 6 samples.

Results

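Translation initiation factors are the proteins that place a ribosome on the start codon of a messenger RNA. Their genes were described here in mouse hearts, chosen by name: the rows of the deposited count table whose symbol starts with Eif and a digit from 1 to 6, leaving out the eIF2 kinases (Eif2ak) and symbols marked as pseudogenes. The rule found 52 of 49315 genes. Of these, 49 passed the filter on low counts and were tested among 14370 genes. The 3 others were Eif2c5, whose symbol is an older one of the Argonaute family and which had 2 reads in all, Eif4e1b, an oocyte form of the cap-binding protein with 0 reads, and Eif4ebp3, with at most 5 reads in a library.

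The RNA came from mid-ventricular tissue of adult mice, all of which had received Angiotensin II, a peptide that constricts vessels and raises blood pressure, from implanted pumps for 28 days (1 mg/kg/day). The mice formed 2 groups of 3 biological replicates, per the design text: wild type (WT) and a knockout of Tet2, a dioxygenase that oxidises methylated cytosine in DNA, restricted to endothelial cells (TET2KO). No group without Angiotensin II was analysed here, so every comparison is between genotypes under treatment. The promoter that drove the deletion, the exons removed, and the sex of the animals are not stated in the labels.

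As background, initiation starts when eIF2, bound to GTP, carries the initiator tRNA to the small ribosomal subunit, with eIF1, eIF1A, eIF5 and the large scaffold eIF3. The complex eIF4F, made of the cap-binding protein eIF4E, the scaffold eIF4G and the helicase eIF4A, brings this assembly to the capped end of a messenger RNA. Supply is regulated at 2 points: kinases phosphorylate eIF2 and so block its exchange factor eIF2B, and the kinase complex mTORC1 phosphorylates the 4E-binding proteins, which otherwise sequester eIF4E. In the heart, both points are known for their part in growth under load. Transcript levels, which are what was measured, do not report phosphorylation or protein.

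Some facts of the whole series bear on every value below. Library totals ran from 22124844 to 26569073 reads in WT and from 26810691 to 30418909 in TET2KO. Tet2 itself stood at 4.27, 4.33 and 3.08 CPM (reads of a gene relative to its library's total, with trimmed-mean scaling factors) in WT replicates 1, 2 and 3 and at 14.6, 8.01 and 10.4 CPM in the libraries labelled TET2KO, which is higher, against the label, in counts over the whole gene and whole tissue. Every direction given here is that of the labels. Fold changes followed transcript length: the 1438 genes with the shortest transcripts had a median log2 fold change of -1.29 and the 1435 with the longest one of 1.38. Log2 fold changes are therefore given as counted and, for most genes, again as a detrended value. For this a smooth trend on transcript length and GC content was removed from each library. Marker counts and sums, TPM levels and ratios, and paralog shares are not detrended. For Tet2 the log2 fold change was 1.49 ± 0.29 as counted and 0.27 ± 0.17 detrended, the latter not past the test used below. Replicate 2 of TET2KO stood nearer to WT than the other 2 along the length trend, with the genes of longest transcripts at 1.82, 0.61 and 1.43 above the WT mean in TET2KO replicates 1, 2 and 3. Of the cardiomyocyte markers, 3 of 8 were higher and 4 lower, with summed levels of 75213 to 92822 CPM in WT and 49517 to 54487 CPM in TET2KO; of the endothelial markers, 5 of 7 were higher and 2 lower, at 435 to 479 and 464 to 815 CPM. Fibroblast markers (6) had 2 higher and 3 lower, at 1031 to 1149 and 785 to 867 CPM, smooth muscle and pericyte markers (5) had 2 higher and 1 lower, at 2030.4 to 2183 and 1084 to 1802 CPM, macrophage markers (5) had 2 higher and 0 lower, at 96.5 to 105 and 92.0 to 109 CPM, and erythroid markers (4) had 0 higher and 4 lower, at 1515 to 6833 and 156 to 716 CPM. Of 4 atrial and skeletal muscle markers 2 were tested, 0 higher and 1 lower, at 986 to 1704 and 1802 to 2557 CPM in sum. No marker of these lists was at 0 reads in every library, and the part of these shifts in the results below was not tested. In whole tissue, fewer cells of a type and less RNA per cell cannot be told apart.

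More initiation factor genes were lower than higher in the libraries labelled TET2KO as counted, and those that were higher included Eif3a, Eif3b, Eif3c, Eif4g1 and Eif4g3, which encode large scaffold proteins. As counted, 9 of the 49 tested members were higher, 24 were lower and 16 stayed under the test's threshold (edgeR's quasi-likelihood test, Benjamini-Hochberg adjustment over all genes, threshold 0.05). That is 67.3% of the members, against 62.9% of all genes tested, so the share called is near the background; by direction, 33.4% of all genes were higher and 29.4% lower. The median log2 fold change, or log2 ratio of TET2KO to WT (± SE for single genes), was -0.43 for the members and 0.046 for all genes; the members' median was -0.00426 when libraries were scaled by their totals and 0.20 on log2(TPM + 1) values. With those 2 scalings 13 members were higher and 13 lower, and 18 higher and 12 lower, so the excess of lower members was not kept. Scaled by library totals 11 calls were lost, those of Eif1, Eif1a, Eif2b2, Eif2d, Eif3d, Eif4a3, Eif4e2, Eif4ebp1, Eif5, Eif5a and Eif6, and on log2(TPM + 1) values 12, the same genes and Eif2s3y. These scalings moved the median of all genes to 0.47 and 0.41 and the share of calls that were higher from 53.2% to 74.2% and 79.3%. Relative to the median of all genes, the members' median was thus lower under each of the 3 scalings.

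After detrending 12 members were higher, 19 lower and 18 not past, where 46.0% of all genes passed, 21.8% higher and 24.3% lower. The members' median moved to -0.14, against -0.031 over all genes. A total of 8 members was higher in both fits and 14 lower in both, and 0 passed in opposite directions. The detrended values depended on which length was used: the longest transcript, as here, the merged exons, or the coding sequence, the last chosen after seeing the data. The call as counted was kept with all 3 lengths by 6 members that rose (Eif3a, Eif3c, Eif4b, Eif4g1, Eif4ebp2 and Eif5b) and 10 that fell (Eif2a, Eif2d, Eif2s1, Eif2s2, Eif3e, Eif3h, Eif3i, Eif3m, Eif4a2 and Eif4e). Of these, all but Eif2d also kept it in each of the other alternatives run per gene. Between the groups, CPM did not overlap in 42 of the 49 members, 11 higher and 31 lower, beside 73.5% of all genes (38.0% higher and 35.5% lower). Among the TET2KO libraries, replicate 2 was the lowest for all 9 members that rose and the highest for 23 of the 24 that fell, as it was for 96.0% and 93.5% of all genes called. Without TET2KO replicate 3 the count of lower members was 15, and without TET2KO replicate 2 it was 32. After detrending, without WT replicate 1 there were 7 higher and 10 lower, without WT replicate 2 there were 7 and 16, without WT replicate 3 there were 8 and 8, and without TET2KO replicate 3 there were 6 and 9.

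**Figure D1:**
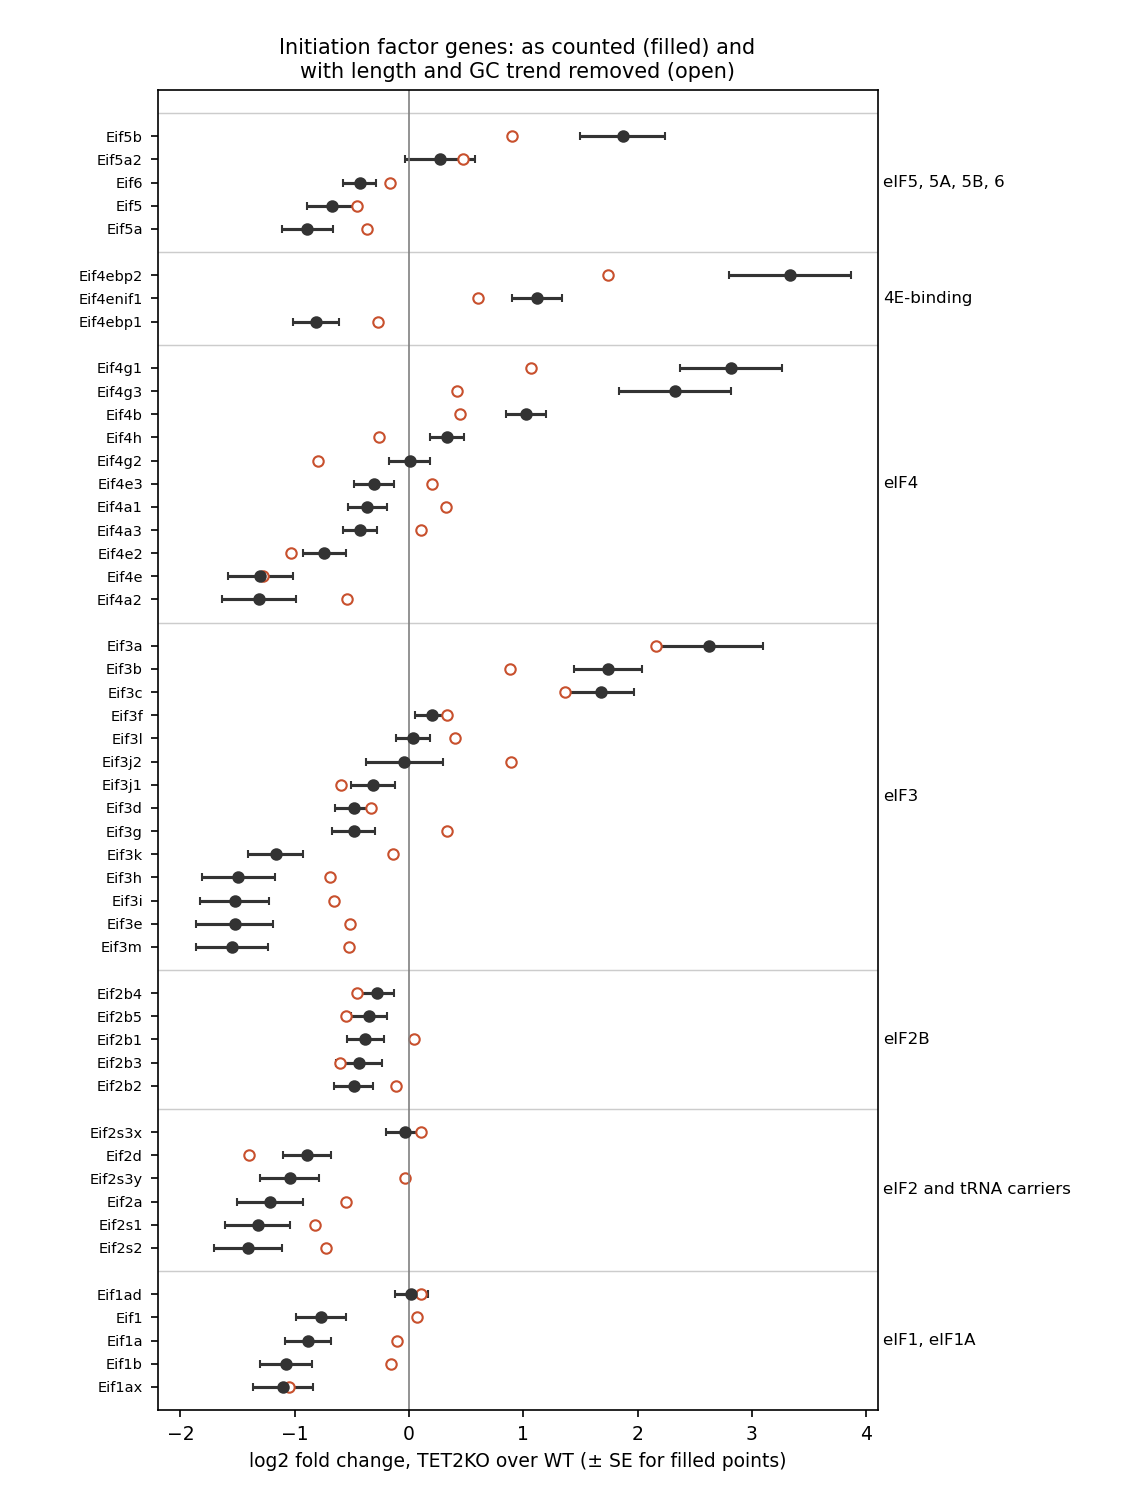
Log2 fold change of TET2KO over WT for the 49 tested members by role, as counted with its SE (filled points) and after removal of the length and GC trend (open points). The filled points of Eif4ebp2, Eif4g1 and Eif3a lie farthest right, at 3.34, 2.82 and 2.62, and most open points lie nearer to 0 than the filled ones.

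Promoter sequence is shown for the 3 members with the largest rise and the 3 with the largest fall whose window from 150 to 31 bases before the start, in the RefSeq table (GRCm38.p6), holds no GENCODE M21 exon, so that both directions can be compared by eye. Capitals mark a match to 1 of 4 motifs searched on both strands: CCGGAAG (ETS family), CACGTG (E-box), AAGATGGCG (YY1) and TGATGNAAN (a composite site of ATF4). The windows of the members that rose are chr10:61452700-61452819 (minus strand) for Eif4ebp2, chr16:20672577-20672696 (plus strand) for Eif4g1 and chr19:60790724-60790843 (minus strand) for Eif3a. Those of the members that fell are chr2:154892937-154893056 (minus strand) for Eif2s2, chr16:23107318-23107437 (plus strand) for Eif4a2 and chr3:138526041-138526160 (plus strand) for Eif4e. The window of Eif4g1 lies inside the span of its gene (20668313 to 20692884), before an internal start. The other windows lie outside the spans of their genes.
Eif4ebp2: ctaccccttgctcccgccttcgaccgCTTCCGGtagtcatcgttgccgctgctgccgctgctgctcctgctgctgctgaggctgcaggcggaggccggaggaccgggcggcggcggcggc
Eif4g1: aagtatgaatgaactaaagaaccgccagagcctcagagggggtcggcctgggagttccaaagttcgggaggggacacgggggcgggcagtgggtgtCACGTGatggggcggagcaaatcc
Eif3a: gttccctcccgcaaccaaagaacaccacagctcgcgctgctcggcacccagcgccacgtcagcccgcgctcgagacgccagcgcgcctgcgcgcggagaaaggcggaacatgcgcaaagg
Eif2s2: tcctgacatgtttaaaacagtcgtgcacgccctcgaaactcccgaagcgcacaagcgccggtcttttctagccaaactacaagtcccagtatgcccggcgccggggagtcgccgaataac
Eif4a2: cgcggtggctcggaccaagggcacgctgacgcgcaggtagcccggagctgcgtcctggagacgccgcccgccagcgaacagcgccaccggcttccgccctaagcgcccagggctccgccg
Eif4e: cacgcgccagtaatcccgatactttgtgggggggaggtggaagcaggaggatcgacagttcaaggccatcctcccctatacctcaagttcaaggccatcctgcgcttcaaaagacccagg
GC content was 73.3%, 60.8% and 69.2% in the windows of Eif4ebp2, Eif4g1 and Eif3a and 56.7%, 75.8% and 56.7% in those of Eif2s2, Eif4a2 and Eif4e, so both directions span a similar range. An ETS match lies 124 to 118 bases before the start of Eif4ebp2, on the opposite strand, and an E-box 54 to 49 bases before that of Eif4g1; the other 4 windows hold none of these letters. Over the full windows of 300 bases, 13 of the 40 members with an entry (32.5%) held CCGGAAG, beside 9.12% of 27025 promoters, and 8 (20.0%) held CACGTG, beside 7.24%. AAGATGGCG and TGATGNAAN were each in 1 member, beside 1.5% and 4.04% of all promoters. By direction, CCGGAAG was in 2 of the 9 promoters of members that rose and in 6 of the 18 of members that fell, and CACGTG in 2 of 9 and 2 of 18. The 27025 promoters include those of genes not tested here, while nearly all members were tested, so the sets are unlike. These are counts of letters, not of bound sites.

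The scanning factors eIF1 and eIF1A, which keep the small subunit open while it searches for the start codon, were lower as counted and mostly not past the test after detrending. Of 5 genes, 0 were higher, 4 lower and 1 neither, with a median of -0.89; after detrending 1 was lower and 4 were not past, with a median of -0.11, and with coding length in the trend it was 0.078. Eif1b, a paralog of eIF1, stood at 87.1, 94.9 and 95.9 CPM in WT against 34.9, 59.6 and 37.4 CPM in TET2KO, in the order of replicates 1, 2 and 3 used throughout. The groups did not overlap, and the gene fell (log2 ratio -1.08 ± 0.23, adjusted p = 0.007), with a detrended value of -0.15 ± 0.12 that did not pass. Eif1 itself, one of the most abundant members, held 1007, 917 and 1118 CPM in WT against 487, 724 and 574 CPM in TET2KO and fell (log2 ratio -0.77 ± 0.22, adjusted p = 0.017). Its sign turned when detrended (0.072 ± 0.10, not past), and it lost its call without replicate 1 or 3 of WT or replicate 3 of TET2KO, at -0.78, -0.70 and -0.70.

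The eIF1A genes differed from each other once detrended on transcript length. Eif1a fell from 43.3, 48.9 and 48.8 CPM to 19.7, 31.9 and 24.6 CPM (log2 ratio -0.89 ± 0.20, adjusted p = 0.0082), and its detrended value was -0.11 ± 0.11, not past. Eif1ax, the X-linked copy, fell from 217, 214 and 240.4 CPM to 73.5, 145 and 94.7 CPM (log2 ratio -1.10 ± 0.26, adjusted p = 0.0094) and had a detrended value of -1.05 ± 0.20, past the test. With coding length in the trend Eif1ax was at -0.16, not past (adjusted p = 0.29), beside 0.078 for Eif1a, so the difference between the copies depended on the length used. All 3 TET2KO libraries were below all 3 WT libraries for both genes. The trend taken out was -0.053 for Eif1ax, with a transcript of 5172 nt, and -0.78 for Eif1a, with one of 2865 nt. Eif1ad, which shares a domain with eIF1A, was flat, at 20.8, 20.3 and 21.3 and 20.8, 19.9 and 22.6 CPM (log2 ratio 0.022 ± 0.15, adjusted p = 0.9).

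The subunits of eIF2, the carrier of the initiator tRNA, were lower in TET2KO except for the X-linked gamma subunit. Of 6 genes of eIF2 and other tRNA carriers, 0 were higher, 5 lower and 1 not past, with a median of -1.13. After detrending 4 were lower and 2 not past (median -0.64), so 4 of the 5 calls of this group were kept with their direction. Eif2s2, the beta subunit, stood at 405, 375 and 430.2 CPM in WT against 101, 222 and 132 CPM in TET2KO (log2 ratio -1.41 ± 0.30, adjusted p = 0.007). Eif2s1, the alpha subunit that stress kinases phosphorylate, stood at 173, 159 and 187 CPM in WT against 47.4, 101 and 59.0 CPM (log2 ratio -1.32 ± 0.29, adjusted p = 0.0072). The groups were apart for both, and both passed after detrending, at -0.73 ± 0.15 and -0.83 ± 0.16. Per TPM, which is scaled by gene length, the alpha subunit held 0.848, 0.840 and 0.862 of the beta subunit in WT and 0.930, 0.901 and 0.886 in TET2KO, so the 2 stayed close to each other in every library.

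The gamma subunit is encoded by Eif2s3x on the X chromosome (94188707 to 94212862, GRCm38) and by Eif2s3y on the Y chromosome (1010543 to 1028847), and the copies parted. Eif2s3x was at 49.2, 56.9 and 54.5 CPM in WT against 46.7, 60.8 and 49.3 CPM in TET2KO, with groups that overlapped (log2 ratio -0.035 ± 0.16, adjusted p = 0.86). Eif2s3y was at 127, 129 and 141 CPM in WT against 46.8, 91.1 and 55.0 CPM, with groups apart (log2 ratio -1.04 ± 0.26, adjusted p = 0.011). Their detrended values of 0.11 ± 0.11 and -0.037 ± 0.11 were both not past the test, the transcripts being 3647 and 1836 nt long. With merged exon or coding length in the trend Eif2s3y was lower and past (-0.40 and -0.68), and on log2(TPM + 1) values it was at -0.45, not past. Eif2s3x turned to a rise past the test on log2(TPM + 1) values (0.57) and with merged exon length in the trend (0.39), and Eif2s3y lost its call without TET2KO replicate 3 (-0.90). The copies code for nearly the same protein, and how the counting treated reads that match both is not stated in the labels.

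The other carriers fell as well. Eif2a, which can deliver initiator tRNA without GTP, went from 141, 128 and 153 CPM to 40.8, 88.9 and 52.0 CPM (log2 ratio -1.21 ± 0.29, adjusted p = 0.0096, detrended -0.55 ± 0.15). Eif2d, which acts in tRNA delivery and ribosome recycling, went from 58.1, 50.7 and 65.2 CPM to 24.1, 39.0 and 30.9 CPM (log2 ratio -0.89 ± 0.21, adjusted p = 0.0094). Its detrended value of -1.40 ± 0.25 is the lowest of all members and larger in size than the value as counted. Scaled by library totals and on log2(TPM + 1) values Eif2d did not pass, at -0.46 and -0.25.

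The 5 subunits of eIF2B, the exchange factor that reloads eIF2 with GTP, had a narrow range of small differences as counted. As counted 0 were higher, 1 lower and 4 not past, with values between -0.48 and -0.28 and a median of -0.38; the median was 0.044 when scaled by library totals and 0.24 on log2(TPM + 1) values, and thus turned. In CPM all 5 had TET2KO libraries below every WT library, as did 35.5% of all genes tested. In TPM, all 5 had TET2KO libraries above every WT library. Eif2b2, the beta subunit and the only 1 past the test, held 34.1, 31.9 and 39.6 CPM in WT against 22, 28.9 and 24.6 CPM in TET2KO (log2 ratio -0.48 ± 0.17, adjusted p = 0.038, detrended -0.11 ± 0.11, not past). It lost its call without WT replicate 1, 2 or 3 (-0.51, -0.56 and -0.40) or without TET2KO replicate 1 or 3 (-0.36 and -0.43). After detrending 3 other subunits were lower: Eif2b3 (-0.60 ± 0.18), Eif2b5, the catalytic epsilon subunit (-0.55 ± 0.14), and Eif2b4 (-0.45 ± 0.14), and the group's median was -0.45, larger in size than that of all members. With merged exon length in the trend Eif2b5 was at -0.15, not past, and with coding length it was at -1.31; Eif2b2 was then at -0.62, past the test. Eif2b5 stood at 72.3, 68.1 and 78.7 CPM in WT against 53.4, 64.8 and 54.0 CPM in TET2KO. Eif2b1, the regulatory alpha subunit, was not past in either fit (log2 ratio -0.38 ± 0.16, adjusted p = 0.067, detrended 0.045 ± 0.11).

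The eIF3 complex, the largest initiation factor, split into genes that rose and genes that fell. Of 14 genes, 3 were higher, 6 lower and 5 not past, with a median of -0.40 that was 0.026 when scaled by library totals and 0.21 on log2(TPM + 1) values. The 3 that rose encode the longest subunits, and the largest falls were in short subunits of the same complex. After detrending 6 were higher, 5 lower and 3 not past, with a median of 0.097, and 7 genes kept call and direction. With merged exon or coding length in the trend the median was -0.18 and -0.55, so its sign depended on the length used.

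Eif3a (ENSMUSG00000024991, chromosome 19, 60761117 to 60790658, minus strand), the subunit on which the others assemble, had the largest rise of the complex. It stood at 16.1, 14.5 and 12.9 CPM in WT against 139.5, 32.2 and 96.0 CPM in TET2KO, a 6.16-fold rise (log2 ratio 2.62 ± 0.48, adjusted p = 0.0065). The lowest TET2KO library, replicate 2, was still above every WT library. Most of the rise was left after detrending (2.16 ± 0.39), the highest detrended value of all members. Eif3b, which binds Eif3a, Eif3g and Eif3i, stood at 20.7, 20.0 and 21 CPM in WT against 90.5, 38.6 and 77.2 CPM in TET2KO (log2 ratio 1.74 ± 0.30, adjusted p = 0.0065, detrended 0.89 ± 0.17). Eif3c, the other large PCI-domain subunit, stood at 26.5, 23.8 and 27.1 and 111, 49.1 and 87.8 CPM (log2 ratio 1.68 ± 0.29, adjusted p = 0.0065, detrended 1.36 ± 0.23). The same order of the TET2KO libraries, replicate 1 above 3 above 2, was seen in all 3 genes, and all 3 passed in both fits. With coding length in the trend their values were lower, at 1.57 for Eif3a, 0.56 for Eif3c and 0.31 for Eif3b, which no longer passed (adjusted p = 0.058).

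Among the subunits that fell, Eif3m had the lowest value as counted of all members, from 370.2, 314 and 382 CPM in WT to 76.4, 180.2 and 107 CPM in TET2KO (log2 ratio -1.55 ± 0.32, adjusted p = 0.0066). Eif3i, a partner of Eif3b, went from 290.2, 249 and 317 CPM to 63.2, 142 and 92.1 CPM (log2 ratio -1.52 ± 0.30, adjusted p = 0.0065). For both genes the TET2KO libraries were all below the WT libraries, with replicate 2 nearest to WT. Eif3e, Eif3h and Eif3k had log2 ratios of -1.52, -1.49 and -1.17, past the test, with TET2KO levels of 77.2, 195 and 106, 189, 449.8 and 292 and 65.9, 117 and 85.3 CPM against WT levels of 367, 322 and 398, 895, 766 and 958 and 198, 179.9 and 225 CPM. Detrended values were -0.52 ± 0.13 for Eif3m, -0.66 ± 0.14 for Eif3i, -0.52 ± 0.15 for Eif3e and -0.69 ± 0.16 for Eif3h, all past the test, and -0.14 ± 0.10 for Eif3k, not past. With merged exon or coding length in the trend Eif3k passed as lower, at -1.09 and -0.65. Eif3e, Eif3h, Eif3k and Eif3m belong, with Eif3a and Eif3c, to the same ring of PCI and MPN domain subunits, so genes of 1 structural module stood on both sides.

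The rest of the complex moved less as counted. Eif3d, the subunit with a cap-binding pocket of its own, went from 65.1, 65.6 and 76.4 CPM to 42.7, 57.8 and 48.1 CPM (log2 ratio -0.48 ± 0.17, adjusted p = 0.041, detrended -0.33 ± 0.12, not past) and lost its call without WT replicate 1, 2 or 3 (-0.53, -0.52 and -0.41) or TET2KO replicate 1 or 3 (-0.35 and -0.42). With merged exon or coding length in the trend Eif3d was lower and past, at -1.30 and -1.18. Eif3g, an RNA-binding subunit beside Eif3i, stood at 76.0, 80.2 and 99.1 CPM in WT against 51.3, 70.1 and 61.1 CPM in TET2KO, not past as counted (log2 ratio -0.48 ± 0.19, adjusted p = 0.051), and its sign turned to a rise past the test when detrended (0.33 ± 0.12). Eif3f and Eif3l, not past as counted at 0.21 and 0.04 on the log2 scale, also passed as higher after detrending, at 0.33 ± 0.11 and 0.40 ± 0.11. These rises depended on the length: with coding length Eif3g and Eif3l were lower and past, at -0.53 and -0.56, and Eif3f was at 0.23, not past. The loosely bound subunit Eif3j1 was at log2 ratio -0.32 ± 0.19, adjusted p = 0.18, with groups that overlapped, and its copy Eif3j2 held about 1 CPM, 0.864, 0.940 and 1.29 and 0.728, 1.00 and 1.27.

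Levels of different subunits were compared in TPM, since the 12 core subunits (all but the Eif3j genes) assemble in a 1 to 1 ratio as protein. In WT the highest subunit transcript, Eif3h, exceeded the lowest, Eif3a, by 230.0, 218 and 307 times in the 3 libraries. In TET2KO the highest exceeded the lowest by 8.86, 57.7 and 12.6 times, with Eif3h still the highest and Eif3a the lowest in replicates 2 and 3, and Eif3i the lowest in replicate 1. The standard deviation of log2 TPM over the 12 genes was 2.25, 2.21 and 2.34 in WT and 0.794, 1.55 and 0.974 in TET2KO. The spread among subunit transcripts was thus narrower in every TET2KO library than in any WT library. With CPM per kilobase of the longest transcript in place of TPM, the ratio was 220.3, 209 and 294 in WT and 6.50, 55.3 and 12 in TET2KO. Both units divide a gene by 1 length in all libraries, so the length trend between libraries stays in these spreads. This also holds for the complexes below. How much of the narrowing follows that trend was not tested. Summed over the 12 genes, eIF3 transcripts held 2182, 2115 and 2204 TPM in WT and 1287, 1805 and 1446 TPM in TET2KO.

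**Figure D2:**
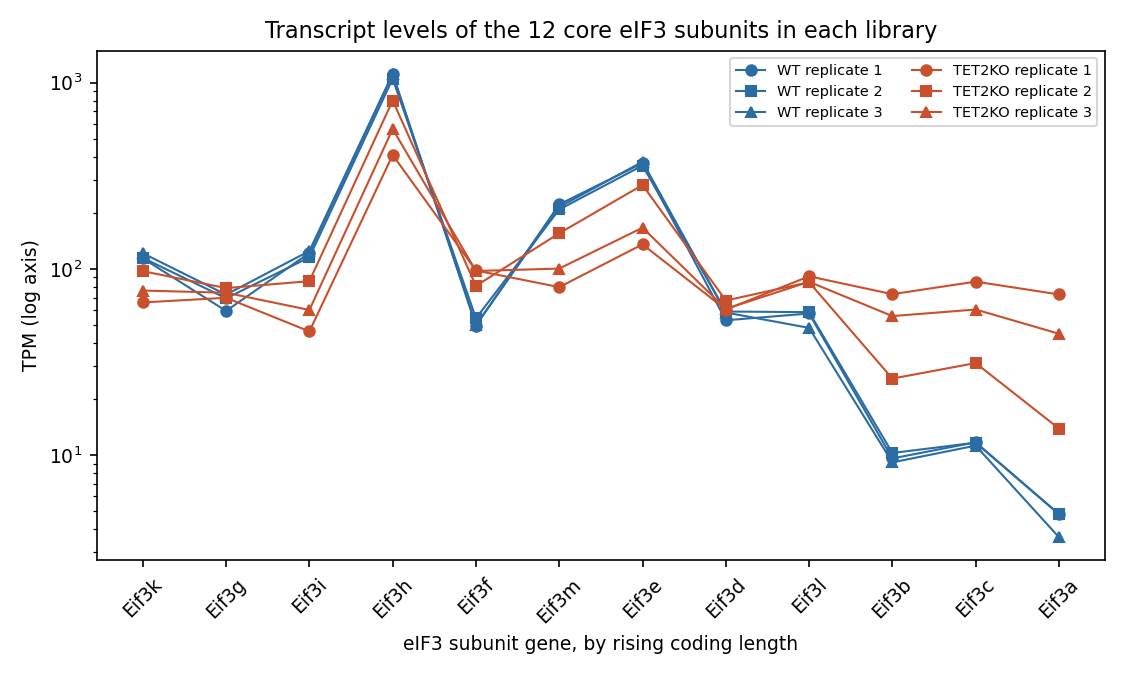
TPM (log axis) of the 12 core eIF3 subunit genes in each of the 6 libraries, ordered by coding length from left to right. WT libraries drop steeply at the 3 longest subunits, to 4.82, 4.82 and 3.62 TPM at Eif3a, where TET2KO libraries hold 72.9, 13.9 and 44.9 TPM, with replicate 2 between the groups.

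The other complexes were measured in the same way, and they did not all follow. For eIF2, with the X-linked and Y-linked gamma copies summed, the ratio of the highest to the lowest TPM was 1.38, 1.21 and 1.32 in WT and 1.69, 1.28 and 1.51 in TET2KO, with groups that overlapped and no narrowing. With Eif2s3x as the only gamma gene it was 4.65, 3.72 and 4.46 in WT and 1.22, 2.06 and 1.51 in TET2KO, which leaves out the larger part of the gamma transcripts in WT. For eIF4F (Eif4e, Eif4g1 and Eif4a1) it was 20.4, 19.0 and 22 in WT and 1.86, 4.21 and 1.32 in TET2KO, and with Eif4g3 and Eif4a2 added to their paralogs it was 49.2, 48.4 and 58.4 in WT and 3.56, 12.7 and 3.40 in TET2KO. The eIF2B subunits showed no such narrowing, at 8.44, 8.12 and 8.35 in WT and 10, 8.02 and 9.81 in TET2KO. All members together summed to 5228, 5291 and 5254 TPM in WT and 4109, 5059 and 4319 TPM in TET2KO, so the family as a whole took a smaller share in every TET2KO library.

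The eIF4 factors, which bind the cap and unwind the leader, also split: the scaffold Eif4g1 was higher and the cap-binding protein Eif4e lower in both fits, while the most abundant scaffold gene, Eif4g2, did not rise. Of 12 genes, 11 were tested: 3 were higher, 4 lower and 4 not past, with a median of -0.31 that was 0.12 when scaled by library totals and 0.31 on log2(TPM + 1) values. The median was -0.15 without TET2KO replicate 1. After detrending again 3 were higher, 4 lower and 4 not past, with a median of 0.10, and 5 genes kept call and direction. With merged exon or coding length in the trend the median was -0.39 and -0.29, so its sign depended on the length used.

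Eif4g1 (ENSMUSG00000045983, chromosome 16, 20668313 to 20692884, plus strand), the main scaffold of eIF4F, stood at 34.8, 31.6 and 31.7 CPM in WT against 352, 92.0 and 248 CPM in TET2KO. The 7.06-fold rise (log2 ratio 2.82 ± 0.45, adjusted p = 0.0065) had a detrended value of 1.07 ± 0.15, past the test. Its paralog Eif4g3 was lower in level, at 5.38, 6.34 and 4.09 and 41.4, 9.74 and 28.2 CPM (log2 ratio 2.32 ± 0.49, adjusted p = 0.007), and did not pass after detrending (0.42 ± 0.18), though it did with merged exon or coding length in the trend (0.78 and 0.60). In both scaffolds TET2KO replicate 1 was the highest and replicate 2 the lowest of its group, and no TET2KO library reached down to WT. Eif4g2, a scaffold that lacks the eIF4E binding site, differed from them: it was at 965, 1058 and 944 CPM in WT against 930.1, 1058 and 990.3 CPM in TET2KO, with groups that overlapped (log2 ratio 0.0056 ± 0.18, adjusted p = 0.98). Detrended, it was lower and past the test (-0.79 ± 0.20). Eif4b, the RNA-binding cofactor of the helicase, rose from 70.1, 79.3 and 79.0 CPM to 166, 129.8 and 169 CPM (log2 ratio 1.03 ± 0.17, adjusted p = 0.0065, detrended 0.45 ± 0.11), and its 3 TET2KO libraries lay closer together than those of the scaffolds. Eif4h, a related cofactor, was at log2 ratio 0.33 ± 0.15, adjusted p = 0.083.

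Eif4e (ENSMUSG00000028156, chromosome 3, 138526179 to 138559696, plus strand) binds the cap and is the subunit that the 4E-binding proteins sequester. It stood at 591, 499.6 and 579.9 CPM in WT against 158, 322 and 198 CPM in TET2KO, 2.47-fold lower (log2 ratio -1.30 ± 0.28, adjusted p = 0.0074). The trend taken out of it was -0.021, for a transcript of 4991 nt, so the detrended value was -1.28 ± 0.22, past the test; with coding length in the trend it was -0.57, still past. Eif4e2, a cap-binding protein that represses translation, went from 117, 108 and 106 CPM to 53.0, 79.9 and 65.4 CPM (log2 ratio -0.74 ± 0.19, adjusted p = 0.012, detrended -1.03 ± 0.18). It lost its call without WT replicate 1 (-0.71) or TET2KO replicate 3 (-0.70), or when scaled by library totals (-0.32), or on log2(TPM + 1) values (-0.12), or with coding length in the trend (-0.29). Eif4e3, another cap-binding form, was not past in either fit (log2 ratio -0.31 ± 0.17, adjusted p = 0.15, detrended 0.20 ± 0.11). The TPM ratio of Eif4e to Eif4g1 was 20.4, 19.0 and 22 in WT and 0.538, 4.21 and 0.961 in TET2KO, so the 2 subunits were near parity in replicates 1 and 3 and not in replicate 2.

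The helicase genes differed in size of change. Eif4a2 stood at 1099, 966 and 1158 CPM in WT against 282, 651 and 367 CPM in TET2KO (log2 ratio -1.31 ± 0.32, adjusted p = 0.01, detrended -0.55 ± 0.15). Eif4a1, the form of most growing cells, was at 238, 255 and 263 CPM in WT against 177, 220.4 and 189 CPM, with groups that did not overlap but a value not past the test (log2 ratio -0.37 ± 0.17, adjusted p = 0.094), and turned to higher and past when detrended (0.32 ± 0.11). With merged exon or coding length in the trend Eif4a1 was lower and past (both at -0.39), so its direction depended on the length used. Eif4a3, the helicase of the exon junction complex, went from 72.3, 72.9 and 70.8 CPM to 51.2, 59.3 and 50.3 CPM (log2 ratio -0.43 ± 0.15, adjusted p = 0.035) and was at 0.10 ± 0.11 after detrending, not past. It lost its call without WT replicate 1, 2 or 3 (-0.43, -0.43 and -0.45) or TET2KO replicate 1 or 3 (-0.36 and -0.34).

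**Figure D3:**
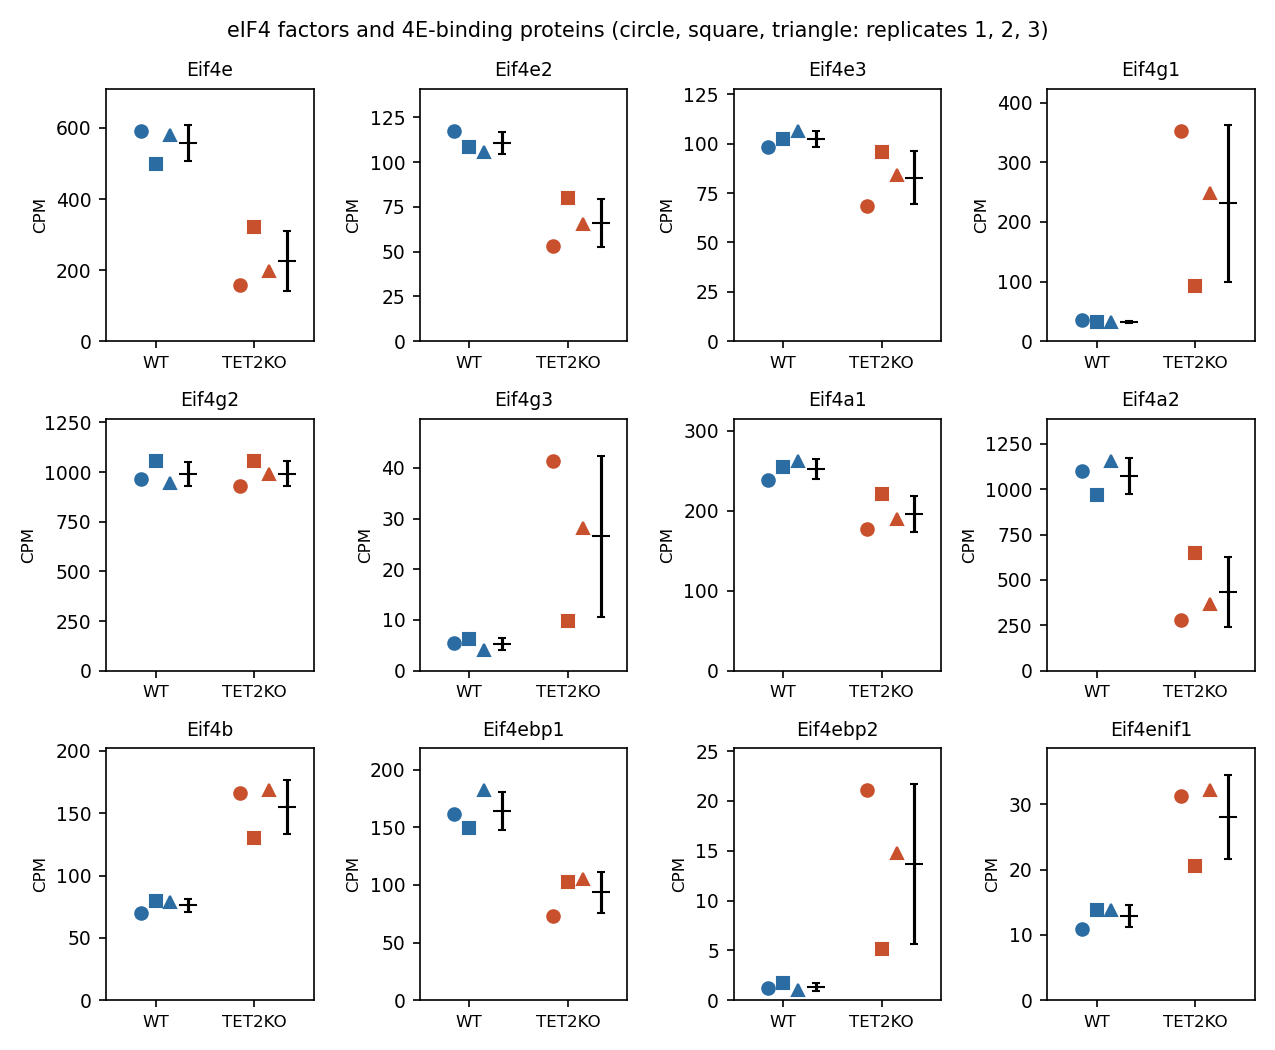
CPM of 12 eIF4 and 4E-binding genes in each library, with a panel and an axis from 0 for each gene; horizontal marks and bars are the mean ± SD of 3 libraries. Eif4g1, Eif4g3 and Eif4ebp2 are near 0 in WT and spread widely in TET2KO, Eif4e and Eif4a2 are lower in every TET2KO library, and the groups of Eif4g2 overlap.

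The 4E-binding proteins, which compete with eIF4G for eIF4E, moved in opposite directions. Of 4 genes 3 were tested, 2 higher and 1 lower, with a median of 1.12; after detrending 2 were higher and 1 not past (0.61). Eif4ebp2 (ENSMUSG00000020091, chromosome 10, 61428491 to 61452661, minus strand), the form best known from the brain, had the largest change of all members. It held 26, 43 and 18 reads in WT and 782, 155 and 464 reads in TET2KO, or 1.25, 1.76 and 1.01 and 21.1, 5.17 and 14.7 CPM. This is a 10.1-fold rise (log2 ratio 3.34 ± 0.53, adjusted p = 0.0065), with a detrended value of 1.74 ± 0.27 (4.37 with coding length in the trend), from a low level in WT. Its coding length of 360 nt is short, and its longest transcript of 5784 nt is mostly untranslated, so it is an exception to the split by coding length described below.

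Eif4ebp1, the main form in muscle, fell from 161, 149 and 182 CPM to 72.9, 102 and 105 CPM (log2 ratio -0.81 ± 0.20, adjusted p = 0.01). Its detrended value of -0.27 ± 0.14 was not past, nor were those when scaled by library totals (-0.39) and on log2(TPM + 1) values (-0.19). Eif4enif1, which binds eIF4E and shuttles it into the nucleus, rose from 10.9, 13.8 and 13.8 CPM to 31.3, 20.6 and 32.2 CPM (log2 ratio 1.12 ± 0.22, adjusted p = 0.0065, detrended 0.61 ± 0.16). With coding length in the trend, chosen after seeing the data, Eif4enif1 was at -0.037 and Eif4ebp1 at 0.18, neither direction being kept. Eif4ebp1 exceeded Eif4ebp2 by 105, 69.2 and 147 times in TPM in WT and by 2.81, 16.1 and 5.82 times in TET2KO. Eif4ebp1 remained the more abundant of the 2 in every library.

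Of the factors of subunit joining and later steps, 1 gene of 5 was higher, 3 were lower and 1 was not past, with a median of -0.43 (-0.00426 when scaled by library totals and 0.20 on log2(TPM + 1) values) and of -0.16 after detrending. Eif5b, the GTPase that joins the large ribosomal subunit, stood at 17.3, 18.4 and 16.4 CPM in WT against 90.9, 29.8 and 69.7 CPM in TET2KO (log2 ratio 1.87 ± 0.37, adjusted p = 0.0065, detrended 0.91 ± 0.21), and rose in both fits. Eif5a, the hypusine-bearing factor that also acts in elongation, went from 720.4, 644 and 741 CPM to 299, 475 and 363 CPM (log2 ratio -0.89 ± 0.22, adjusted p = 0.011, detrended -0.37 ± 0.11) and lost its call scaled by library totals (-0.46), on log2(TPM + 1) values (-0.27), with coding length in the trend (-0.21) or without TET2KO replicate 3 (-0.82). Eif5, which activates the GTPase of eIF2, went from 313, 282 and 332 CPM to 146, 235 and 199 CPM (log2 ratio -0.68 ± 0.22, adjusted p = 0.027, detrended -0.46 ± 0.14). The groups did not overlap in any of these 3 genes. Eif5 lost its call without WT replicate 1, 2 or 3 (-0.68, -0.75 and -0.63) or TET2KO replicate 3 (-0.66). Its difference was smaller and not past when scaled by library totals (-0.25), on log2(TPM + 1) values (-0.063) and with coding length in the trend (-0.38).

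Eif6, which keeps the large subunit from joining early, was lower as counted (log2 ratio -0.43 ± 0.14, adjusted p = 0.031) and not past after detrending (-0.16 ± 0.10). It lost its call without WT replicate 1, 2 or 3 (-0.46, -0.44 and -0.42) or TET2KO replicate 1 or 3 (-0.33 and -0.40), and its libraries held 38.3, 39.2 and 40.1 CPM in WT against 26.3, 31.3 and 29.6 CPM in TET2KO. Eif5a2, the rare copy of Eif5a, was at 2.88, 2.04 and 2.07 and 2.48, 3.80 and 2.19 CPM, with groups that overlapped.

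Paralogs were compared as the share of a pair's TPM that the first gene took, in 9 pairs. The shares were not detrended, and paralogs can differ in length. The transcripts of Eif2s3x and Eif2s3y are 3647 and 1836 nt long, and their detrended log2 ratios of 0.11 and -0.037 were both not past the test. In 7 pairs the groups did not overlap; an exact two-sided permutation test over libraries gave p = 0.10 for each of the 7, the smallest that 3 against 3 allows, and 0.13 after adjustment over the 9 pairs, so none could pass. The largest shift was in the gamma subunit of eIF2, where Eif2s3x took 29.8%, 32.4% and 29.6% in WT and 52.1%, 42.1% and 49.4% in TET2KO (30.6 ± 1.58% and 47.9 ± 5.18%, SD, n = 3). Next was the helicase, where Eif4a1 took 21%, 24.5% and 21.8% of the pair with Eif4a2 in WT and 43.6%, 29.4% and 38.9% in TET2KO. Eif4ebp1 went from 99.1%, 98.6% and 99.3% of the pair with Eif4ebp2 to 73.7%, 94.2% and 85.3%. These 3 pairs moved by 17.3, 14.8 and -14.6 percentage points on average.

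The other pairs moved by less than 6 points. Eif4e went from 86.2 ± 1.04% of the pair with Eif4e2 to 80.4 ± 2.58% (SD, n = 3 libraries), and Eif4g1 from 90.5 ± 1.92% of the pair with Eif4g3 to 93.2 ± 0.336%. Eif1 went from 85.4 ± 1.35% of the pair with Eif1b to 88.0 ± 1.25%, and Eif5a from 99.8 ± 0.029% of the pair with Eif5a2 to 99.6 ± 0.058%. The groups overlapped for Eif1a against Eif1ax (exact permutation p = 0.20) and for Eif3j1 against Eif3j2 (exact permutation p = 0.50). In the pairs of Eif2s3x, Eif4a1, Eif4ebp1, Eif4e and Eif1, TET2KO replicate 2 was the library of its group nearest to the WT mean.

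**Figure D4:**
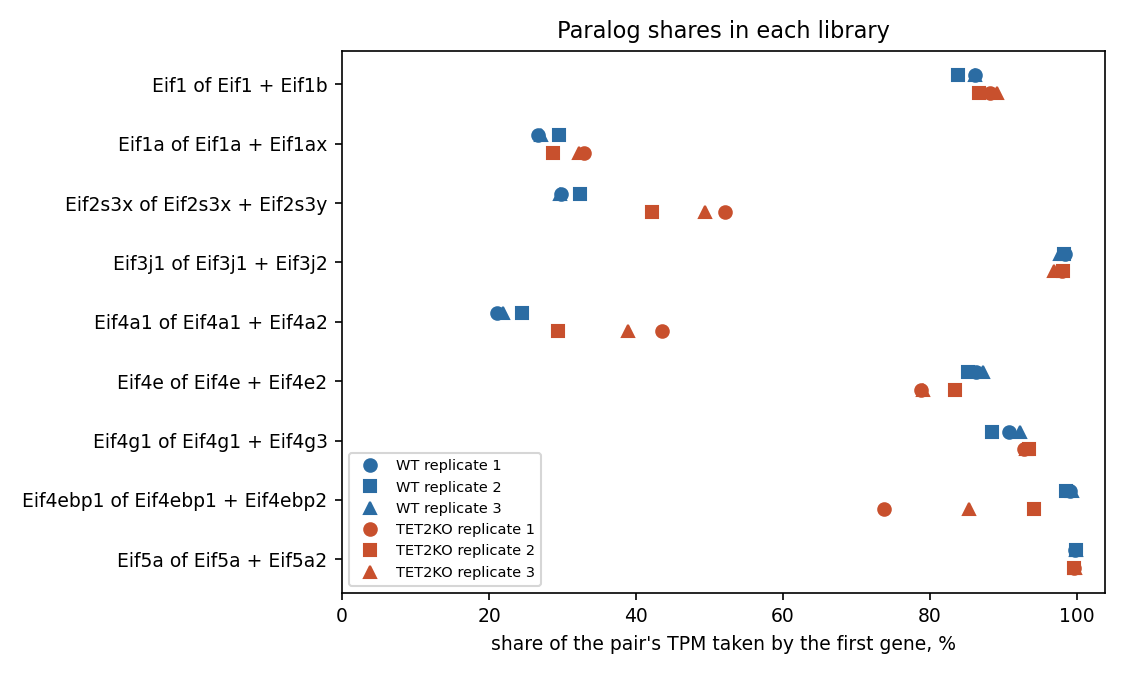
Share of a pair's TPM taken by the first gene, in percent, for 9 paralog pairs in 3 WT (blue) and 3 TET2KO (orange) libraries. The groups are widest apart for Eif2s3x with Eif2s3y, Eif4a1 with Eif4a2 and Eif4ebp1 with Eif4ebp2, and overlap for Eif1a with Eif1ax and Eif3j1 with Eif3j2.

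Differences followed coding length among the members, as they did over all genes. Of 8 tested members with a coding length of at least 2400 nt, a length chosen after seeing the data, 7 were higher (Eif3a, Eif3b, Eif3c, Eif4g1, Eif4g3, Eif5b and Eif4enif1) and Eif4g2 was not past the test, where 72.0% of all 2729 genes of that length were higher and 2.38% lower. Of the 41 with shorter coding sequence, 2 were higher, Eif4b and Eif4ebp2, and 24 were lower, where 24.4% of all such genes were higher and 35.8% lower. Across the 49 members the log2 ratio had a Spearman's rho of 0.56 with transcript length and of 0.39 with coding length, against 0.61 and 0.63 over 14341 genes; with merged exon length it was 0.22, against 0.52. These are descriptions across genes of the same 6 libraries, which are not independent. Within eIF3 (14 genes) rho was 0.77 with transcript length, and after detrending 0.50, against 0.13 over all members and 0.076 over all genes. With merged exon length the eIF3 values were 0.23 as counted and 0.11 after detrending, so the relation within eIF3 was not seen with that length.

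**Figure D5:**
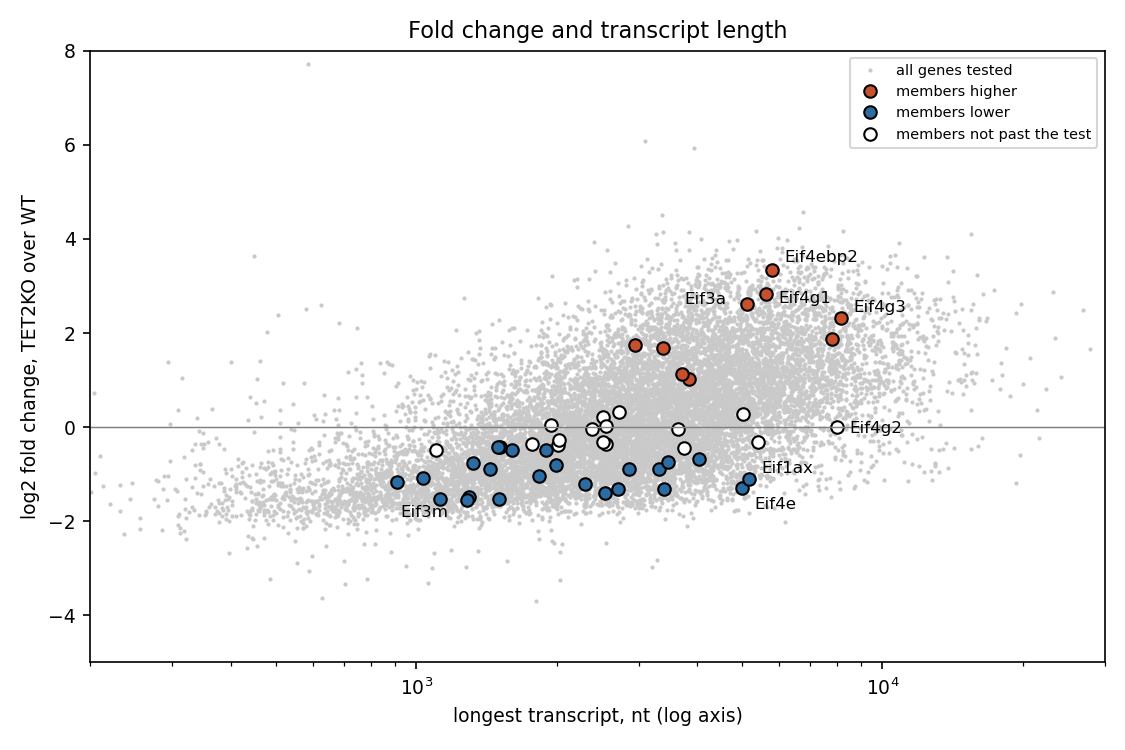
Log2 fold change of TET2KO over WT against the length of the longest transcript (log axis), for all genes tested (grey) and the members (filled by call). Members lie within the cloud of all genes; Eif4e and Eif1ax, at -1.30 and -1.10 with transcripts of 4991 and 5172 nt, lie near its lower edge at that length, and Eif4ebp2 at 3.34 is the highest member.

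Genes that act on the initiation factors were taken from lists by role. Over all genes tested, 33.4% were higher and 29.4% lower as counted, and 21.8% and 24.3% after detrending. The 4 eIF2 kinases were all higher as counted, with a median of 1.28, and 2 were higher after detrending (0.73). Eif2ak1, the heme-regulated kinase, rose from 7.06, 10.5 and 10.8 CPM to 32.0, 20.6 and 25.2 CPM (log2 ratio 1.46 ± 0.24, adjusted p = 0.0065, detrended 0.80 ± 0.18). Eif2ak4, the kinase that senses uncharged tRNA, and Eif2ak3, the kinase of the endoplasmic reticulum, rose by 0.96 ± 0.23 and 1.66 ± 0.42 and did not pass after detrending (-0.075 ± 0.20 and 0.65 ± 0.27). Among 10 eIF2 phosphatase regulators and ATF4 targets, 2 were higher, 1 lower and 7 not past, with a median of 0.19. Ppp1r15b, a regulatory subunit of the eIF2 phosphatase, and Sesn2, a stress-induced sestrin, rose by 0.90 ± 0.22 and 1.73 ± 0.44, neither past after detrending. Atf4, the transcription factor whose translation rises when eIF2 is phosphorylated, fell from 128, 141 and 140.4 CPM to 73.3, 101 and 80.8 CPM (log2 ratio -0.68 ± 0.18, adjusted p = 0.013, detrended -0.35 ± 0.11).

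Of 15 genes of mTORC1 and of kinases that act on eIF4, 12 were higher, 1 lower and 2 not past, with a median of 1.00; after detrending 7 were higher, 3 lower and 5 not past (0.45). Tsc1, a brake on mTORC1, rose by 2.13 ± 0.25 and was at 0.45 ± 0.20 after detrending, not past. Deptor, an inhibitor within the complex, rose from 1.58, 2.00 and 1.34 CPM to 12.8, 5.64 and 8.96 CPM (log2 ratio 2.47 ± 0.36, adjusted p = 0.0065, detrended 1.38 ± 0.19). Mknk2, a kinase that phosphorylates eIF4E, rose from 18.7, 24.2 and 23.6 CPM to 166, 60.7 and 158 CPM (log2 ratio 2.53 ± 0.38, adjusted p = 0.0065, detrended 0.83 ± 0.15). Mtor and Rptor, of the complex itself, were also higher as counted (0.91 ± 0.31 and 2.27 ± 0.41). Detrended, Mtor was lower and past the test (-1.06 ± 0.17), and Rptor was at 0.20 ± 0.15, not past. These inhibitors of mTORC1, Mtor, Rptor and Mknk2 were thus on the same side as counted. Mlst8, also of the complex, was not past as counted (-0.044 ± 0.18) and was lower after detrending (-1.09 ± 0.27). Rheb was the 1 lower gene of the list (-0.72 ± 0.22) and was not past after detrending (-0.016 ± 0.11). The median transcript of this list was 5531 nt, against 2996 nt over all genes tested.

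Poly(A)-binding proteins and other partners of initiation (13 genes) had 5 higher, 5 lower and 3 not past, with a median of -0.28 that turned to 0.53 after detrending, where 7 were higher and 1 lower. Pabpc1 and Pabpc4, which bind the poly(A) tail and eIF4G, rose by 1.69 ± 0.31 and 1.37 ± 0.24 and passed after detrending (1.84 ± 0.30 and 0.88 ± 0.15). Mcts1, which acts with Denr in reinitiation, stood at 49.0, 47.4 and 52.1 CPM in WT against 14.1, 26.8 and 19.2 CPM in TET2KO (log2 ratio -1.30 ± 0.24, adjusted p = 0.0065, detrended -0.19 ± 0.11, not past). The 8 elongation factor genes had 3 higher and 5 lower, and 2 higher and 5 lower after detrending. Eef2k, the kinase that inhibits elongation factor eEF2, rose by 2.51 ± 0.39, Eef1a2, the muscle form of the tRNA carrier, rose by 1.32 ± 0.23, and Eef1e1, a scaffold of the tRNA synthetase complex, was at -1.63 ± 0.27, all past in both fits. Of 3 termination factor genes none passed as counted by edgeR's test, the smallest p being that of Etf1, which recognises stop codons (log2 ratio -0.47 ± 0.20, adjusted p = 0.067).

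In the authors' deposited table, made with DESeq2 per the submitters' processing notes, 9 of the 49 members are listed as higher and 26 as lower at the same threshold. All 33 members called here as counted are called there in the same direction.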

How the data were processed

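Poly(A)-selected libraries of 6 mouse hearts (3 WT, 3 TET2KO) were sequenced as pairs of 150 nt, per the labels' protocols. Per the submitters' processing notes, STAR 2.5.2b, Trimmomatic 0.36, featureCounts, DESeq2 and Subread 1.5.2 were used with GRCm38 (mm10); the annotation, strand setting and treatment of reads matching several genes are not given there. The authors deposited raw read counts per gene and TPM values, which divide each gene by 1 length in all libraries. Their comparison table gives log2 fold changes and p-values, and a normalised signal per library, per the file headers. Columns of per-sample values not matched to a sample numbered 0.

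Counts were tested with edgeR 4.0.16 (R 4.3.3): TMM, filterByExpr, robust quasi-likelihood F-test, group as the only term, Benjamini-Hochberg adjustment at 0.05 over all genes. SE was derived from the test as |log2 fold change| divided by the root of F. The trend-removed fit used per-library smooth surfaces on log2 length of the longest GENCODE M21 transcript and GC content (mgcv 1.9.3, basis size 6 per axis; log2 CPM with a prior count of 2) as offsets; it also takes out real differences that follow length or GC. Of 14370 tested genes 14341 had a length. The fits were tested on simulated counts. Without a trend, the fit as counted called 7 unchanged genes and recovered 18.6% and 84.7% of changes of log2 size 1 and 2. With the fitted trend added, it called 6484 unchanged genes among 14176 tested, and the trend-removed fit called 13. On these counts the trend-removed fit recovered 67.7% and 93.9%, and the fit as counted 60.6% and 87.9%. The simulations with and without a trend used different spreads per gene, so recovery cannot be compared between them. The added trend was the one fitted to these data, which favours the trend-removed fit. Alternatives used DESeq2 1.42.0, limma 3.58.1 (voom, and log2(TPM + 1)), other scalings, lengths and filters, a replicate block and the removal of each library. Replicates differed beyond sampling noise in every pair.

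The members and the lists were chosen with earlier results of these data known. In each role group, values in every library are given for the 2 called members of smallest p in each direction, for up to 2 whose sign turned after trend removal, and for the fixed paralog pairs. Of each list of other translation genes, up to 3 called members of smallest p were named, or else the 1 of smallest p. Mtor, Rptor, Mlst8 and Rheb were added after their values were seen. Members beyond this rule (such as Eif3a, Eif3d, Eif3e, Eif3h, Eif3k, Eif2a, Eif2d, Eif2b5, Eif4g2 and Eif6) were chosen after their values were seen. The p-values of edgeR's test weigh the difference between the groups against the spread of these libraries within a group. That spread is estimated with the help of all genes.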

Additional observations from a re-analysis of the deposited data

How the results depend on the processing

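DESeq2 size factors, DESeq2's own test and limma-voom changed 1, 2 and 1 of the 49 members' calls and reversed none (0). Scaled by library totals 13 members were lower, and on log2(TPM + 1) values 18 were higher and 12 lower. The cause of each change below was not tested, and a sign change with neither fit past the test is not counted as a reversal. Medians of log2 ratios are given in the order all members, scanning factors, eIF2, eIF2B, eIF3, eIF4, 4E-binding proteins and late factors. They were -0.00426, -0.47, -0.71, 0.044, 0.026, 0.12, 1.56 and -0.00426 with library totals, and 0.20, -0.26, -0.54, 0.24, 0.21, 0.31, 1.48 and 0.20 on log2(TPM + 1) values. Detrended, they were -0.14, -0.11, -0.64, -0.45, 0.097, 0.10, 0.61 and -0.16. With merged exon length in the trend, those of all members, scanning factors, eIF2B, eIF3, 4E-binding proteins and late factors moved to -0.21, -0.20, -0.15, -0.18, 0.42 and -0.66. With coding length, added after seeing the data, those of all members, scanning factors, eIF2B, 4E-binding proteins and late factors moved to -0.25, 0.078, -0.62, 0.18 and -0.21. The medians of eIF2 and eIF4 were -1.09 and -0.39 with merged exon length. Those of eIF2, eIF3 and eIF4 were -0.90, -0.55 and -0.29 with coding length. Without the low-count filter the median of the 4E-binding proteins was 0.33.

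Single genes reversed as follows. On log2(TPM + 1) values Eif2s3x was at 0.57, Eif2b2 at 0.15, Eif2b4 at 0.34, Eif3d at 0.15, Eif4a3 at 0.20, Eif4e3 at 0.31 and Eif6 at 0.20. Detrended, Eif3g was at 0.33, Eif4a1 at 0.32, Eif4a3 at 0.10, Eif4g2 at -0.79 and Eif1 at 0.072. With merged exon length Eif2s3x was at 0.39, Eif3j2 at 0.93, Eif4e3 at 0.40, Eif4g2 at -0.48 and Eif4h at -0.75. With coding length Eif3l was at -0.56, Eif4e3 at 0.37, Eif4g2 at -0.47, Eif4ebp1 at 0.18, Eif4enif1 at -0.037, Eif1 at 0.19 and Eif1a at 0.078.

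Same-numbered libraries of the 2 groups correlated in their deviations at 0.039, -0.23 and -0.013, and libraries of other numbers at -0.27 to 0.26. With 3 libraries a group, these values cannot decide whether the numbers pair them. With a replicate block 7618 genes were called, and 9 members were higher and 18 lower. Detrended with the replicate block, 5713 genes were called, with medians of -0.14, -0.10, -0.65, 0.097, 0.10, 0.60 and -0.16 for all members, scanning factors, eIF2, eIF3, eIF4, 4E-binding proteins and late factors, and Eif4a3 was at 0.10, Eif4g2 at -0.83 and Eif1 at 0.073.

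Leaving out 1 library at a time gave 6133 to 11178 calls over all genes, 9 to 10 higher members and 15 to 32 lower. Detrended, it gave 4037 to 8666 calls, 6 to 14 higher members and 8 to 21 lower. The eIF4 median ran from -0.40 to -0.15. Depth limits the rarest members: Eif3j2, Eif5a2 and, in WT, Eif4ebp2 rest on few reads.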

Other observations

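The 7 rows left out by name as pseudogenes held few reads. Eif4a-ps4 had 217 reads over the 6 libraries, at most 44 in 1 of them, and the 6 others had between 0 and 13 in all. Reads of initiation factor genes that also match such copies, or copies with other names, could be placed on either, and how many were is unknown.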
